A study of Mus musculus with 9 samples.

Results

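The ATP-binding cassette (ABC) family was followed through knockdown of Eed or Suz12 in a mouse leukaemia line. Members were taken by symbol: every gene named Abca, Abcb, Abcc, Abcd, Abce, Abcf or Abcg followed by a digit, read from 1 probe set per gene, the single-symbol probe set with the highest mean over the 9 arrays. This gave 48 members of the 19937 genes measured: 16 in subfamily A, 9 in B, 10 in C, 3 in D, 1 in E, 3 in F and 6 in G. The rule used no measured change.

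The cells were a murine MLL-AF9/NrasG12D leukaemia line of genetic background B6/SJL(CD45.2), grown in serum-containing RPMI1640 and transduced with an LMN (MSCV) vector. All 3 groups carried the fusion oncogene, the mutant Nras and a vector, and RNA was taken at day 5 in each. The control vector held an shRNA against Renilla luciferase (Rluc), a gene that mouse cells lack, and the others held an shRNA against Eed or against Suz12, with 3 arrays per group. The labels name 1 cell line and give no hairpin identity. Nothing in them tells separate cultures from repeated measurements within a group, and p-values therefore rest on a spread that could be technical. Eed and Suz12 are core subunits of Polycomb repressive complex 2 (PRC2), which places a repressive methyl mark on histone H3, and the study asked which genes lie downstream of it.

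ABC proteins bind and hydrolyse ATP through a pair of conserved nucleotide-binding domains. Most use that energy to move substrates across a membrane: subfamily A members handle lipids, several members of B, C and G pump drugs and organic anions out of cells and are known for multidrug resistance in leukaemia, and most D members load fatty acids into peroxisomes. Subfamilies E and F have no membrane-spanning part and work with ribosomes.

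The labels were first checked at the targeted genes, on the deposited log2 RMA (robust multi-array average) scale. Eed lay between 10.14 and 10.27 in the controls and between 8.34 and 8.56 under its own shRNA, 3.36-fold lower (adjusted p = 3.1e-07, limma with Benjamini-Hochberg adjustment over all genes). Suz12 lay between 12.09 and 12.23 in the controls and between 10.06 and 10.28 under its own shRNA, 3.94-fold lower (adjusted p = 5.44e-08). All 13 fixed myeloid markers lay above a background guide of 6.32, set at the 95th percentile of 1027 olfactory receptor genes by their mean in the controls; RMA gives no detection call. Their mean per array was 11.39 to 11.40 in the controls, 11.46 to 11.48 under Eed shRNA and 11.43 to 11.48 under Suz12 shRNA. Of 7 fibroblast markers, Col1a1, Col1a2, Col3a1 and Pdgfrb were above the guide and Pdgfra, Dcn and Lum were not. The fibroblast mean per array was 6.85 to 6.93 in the controls, 7.01 to 7.07 under Eed shRNA and 6.99 to 7.07 under Suz12 shRNA; its part in the changes given here was not tested. Above the guide were also 3 of 3 measured erythroid markers (Klf1, Epor and Alas2), 2 of 6 T and B cell markers, 2 of 4 endothelial markers and 2 of 4 epithelial and liver markers.

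Promoter sequence is shown for 4 members, because the neighbours Abcb1b and Abcb1a, both P-glycoprotein genes, gave different calls and because Abcb6 and Abca13 are, with Abcb1b, among the members with the largest changes. Each run is the 250 bases before the gene's annotated start, 5′ to 3′ on the gene's strand, from RefSeq on GRCm38.p6. Capitals mark every CG dinucleotide and every TATAAA on either strand. Abcb1b lies at chr5:8797897-8798146 on the plus strand, Abcb1a at chr5:8566841-8567090 on the plus strand, Abcb6 at chr1:75180393-75180642 on the minus strand and Abca13 at chr11:9191692-9191941 on the plus strand.
Abcb1b: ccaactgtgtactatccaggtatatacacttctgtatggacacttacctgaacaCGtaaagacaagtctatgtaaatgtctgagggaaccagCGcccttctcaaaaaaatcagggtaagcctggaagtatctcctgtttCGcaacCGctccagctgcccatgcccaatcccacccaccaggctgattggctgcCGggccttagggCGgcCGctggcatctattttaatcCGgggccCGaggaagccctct
Abcb1a: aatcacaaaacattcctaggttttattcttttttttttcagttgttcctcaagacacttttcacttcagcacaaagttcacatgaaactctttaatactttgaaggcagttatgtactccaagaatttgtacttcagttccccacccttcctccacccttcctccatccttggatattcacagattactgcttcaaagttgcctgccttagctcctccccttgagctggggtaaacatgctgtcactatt
Abcb6: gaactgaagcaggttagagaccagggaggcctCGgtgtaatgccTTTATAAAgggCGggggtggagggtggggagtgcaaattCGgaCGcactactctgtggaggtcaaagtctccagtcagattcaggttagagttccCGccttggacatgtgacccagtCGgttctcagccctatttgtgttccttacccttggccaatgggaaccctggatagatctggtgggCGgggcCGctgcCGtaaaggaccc
Abca13: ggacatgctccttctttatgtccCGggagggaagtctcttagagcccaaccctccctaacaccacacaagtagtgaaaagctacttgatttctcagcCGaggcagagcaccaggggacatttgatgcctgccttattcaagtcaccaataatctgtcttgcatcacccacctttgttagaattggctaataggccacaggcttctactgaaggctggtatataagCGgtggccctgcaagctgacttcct

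The Abcb1b stretch held 9 CG dinucleotides and the Abcb1a stretch held 0. Abcb6 had 9, and also TATAAA on one strand with an overlapping match on the other; Abca13 had 3. In the full RefSeq window of 300 bases, which adds the 50 bases after the start, the counts were 12 for Abcb1b, 2 for Abcb1a, 13 for Abcb6 and 6 for Abca13. A window was found for 38 members; where a gene had several, the one richest in CG was counted, and a motif counted if any window held it. The members' median was 18 CG per window, and the median over 27025 genes was 8. TATAAA was present on either strand in 15.8% of members and 15.7% of all genes, and CACGTG, the E-box core, in 15.8% of members and 8.1% of all genes. The 9 members with a window that were called in a comparison with the control had a median of 26 CG and the 29 not called had 16. The called members Abcb8, Abcc1, Abcc3, Abcc8 and Abcg1 had no window. All called members lay above the background guide, so call and level were not separated here. By level, the 19 members above the background guide had a median of 24 and the 19 at or under it had 11. These counts are descriptions of sequence, not sites.

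Family members that were above the guide were unevenly spread over roles. The guide comes from other probe sets and is only a rough mark, and the share of all genes above it was not counted. In all, 28 of 48 members passed the guide in at least 1 group. They included 10 of 11 drug and organic anion pumps (all but Abcc12), all 3 mitochondrial members, both peroxisomal and both lysosomal members and all 4 translation factors. Only 4 of 16 subfamily A members passed: Abca2, Abca3, Abca7 and Abca13. Among the sterol pumps of subfamily G, Abcg1 and Abcg4 passed and the intestinal and liver pair Abcg5 and Abcg8 did not. Abca1, which exports cholesterol to apolipoprotein A-I, stayed under the guide in every group, with means of 5.85 in the controls, 5.85 under Eed shRNA and 5.88 under Suz12 shRNA. Neither liver bile transporter passed. Fewer cells expressing a gene and less RNA per cell cannot be told apart in these bulk samples.

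**Figure D1:**
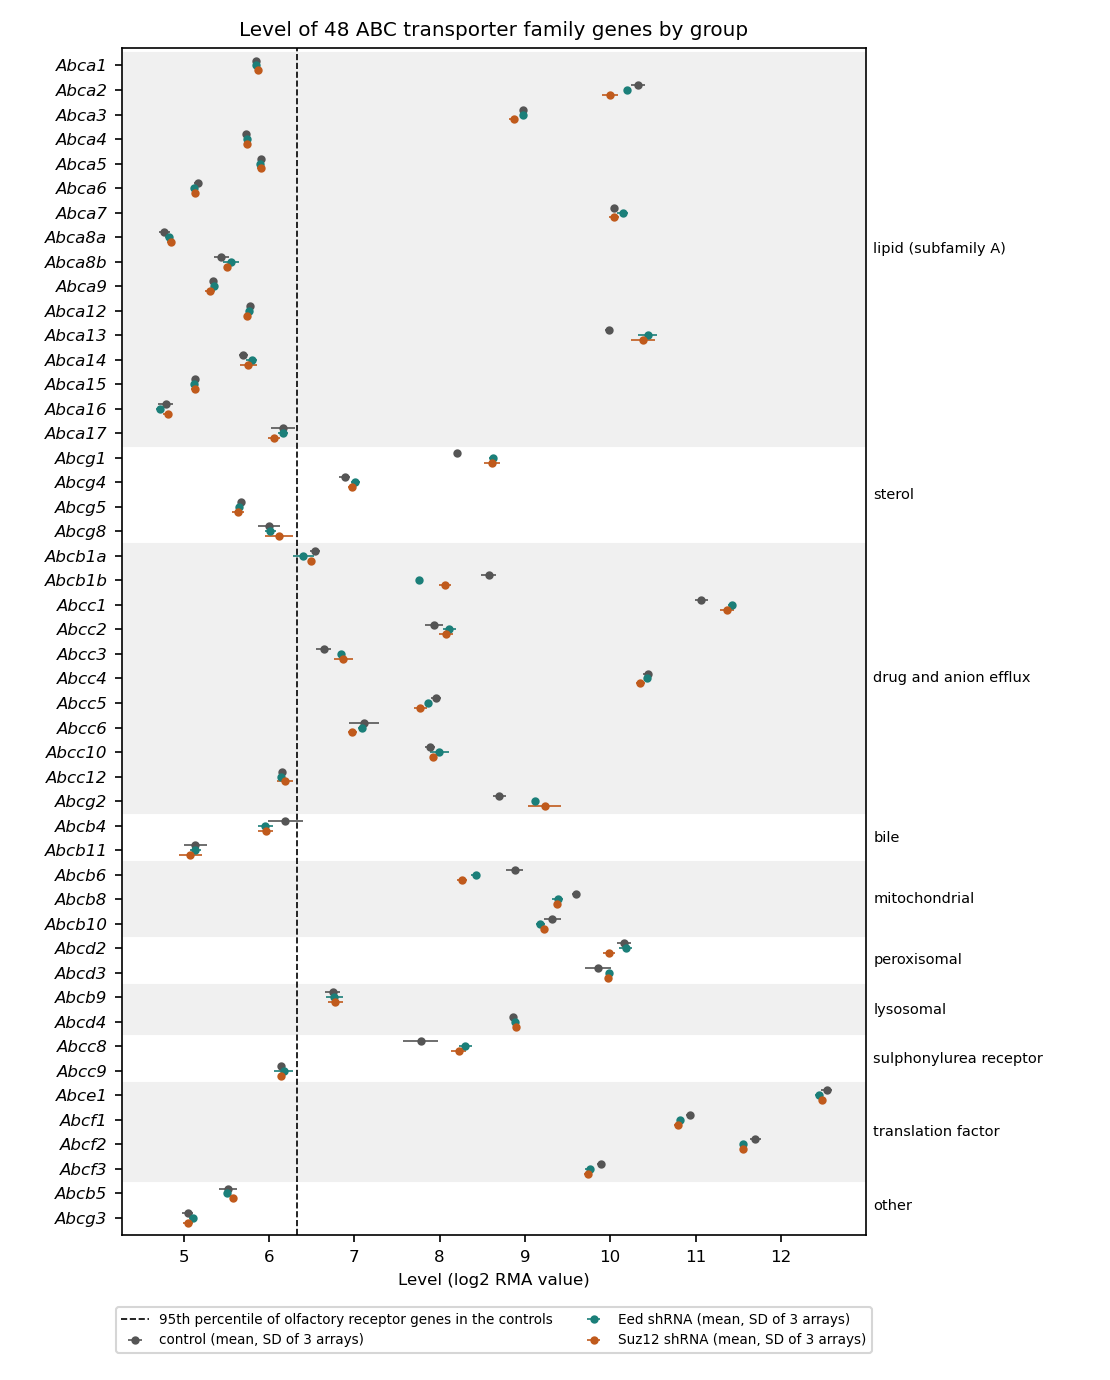
Level of each of the 48 members as log2 RMA value (x axis) by role (rows), with group means as points and the SD of 3 arrays as bars; the dashed line is the background guide at 6.32. A probe set's level is comparable between groups but not with other probe sets. The guide comes from other probe sets, so it is only a rough mark. Above it in at least 1 group lie 28 members, among them 4 of 16 in subfamily A.

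Taken as a family, the members were called about as often as other genes under Eed shRNA. A member was called at an adjusted p under 0.05. Under Eed shRNA 10 of 48 (20.8%) were called, beside 21.8% of all genes. The 6 that rose were Abca13, Abcc1, Abcc3, Abcc8, Abcg1 and Abcg2 (background for higher, 8.78%), and the 4 that fell were Abcb1b, Abcb6, Abcb8 and Abcf2 (background for lower, 13.1%). With Suz12 shRNA the count was 14 of 48 (29.2%), beside 21.2% of all genes. The same 6 rose (background 8.25%), and 8 fell (background 12.9%): the same 4 and Abca2, Abcc5, Abcf1 and Abcf3. Shared calls were common among all genes too. Of 19937 genes, 1419 were called higher and 2113 lower in both comparisons, beside 6 and 4 of the 48 members. The knockdowns share their control arrays, so these calls are not independent. All 14 members called in either comparison lay above the background guide, as did 28 of the 48 members. This was not counted over all genes, so it cannot be read as a trait of the family. The shares called were not matched for level either.

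The median member change was 0.0009 log2 units under Eed shRNA and 0.0037 under Suz12 shRNA, beside -0.0068 and -0.0171 over all genes. At 1.5-fold or more, 1 member was called under Eed shRNA (Abcb1b), where 2.38% of all genes were, and 1 under Suz12 shRNA (Abcb6), where 2.43% were. The split by direction depended on scaling. After centring on array medians, 5 members were higher and 9 lower under Eed shRNA; with Suz12 shRNA 6 were higher and 5 lower after cyclic loess, and likewise after quantile normalization. Over all genes, cyclic loess gave 2141 higher and 2089 lower under Eed shRNA and 2090 and 1892 under Suz12 shRNA, where the values as deposited gave 1750 and 2602, and 1644 and 2578. Median centring gave 1379 and 3304, and 1433 and 2980.

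**Figure D2:**
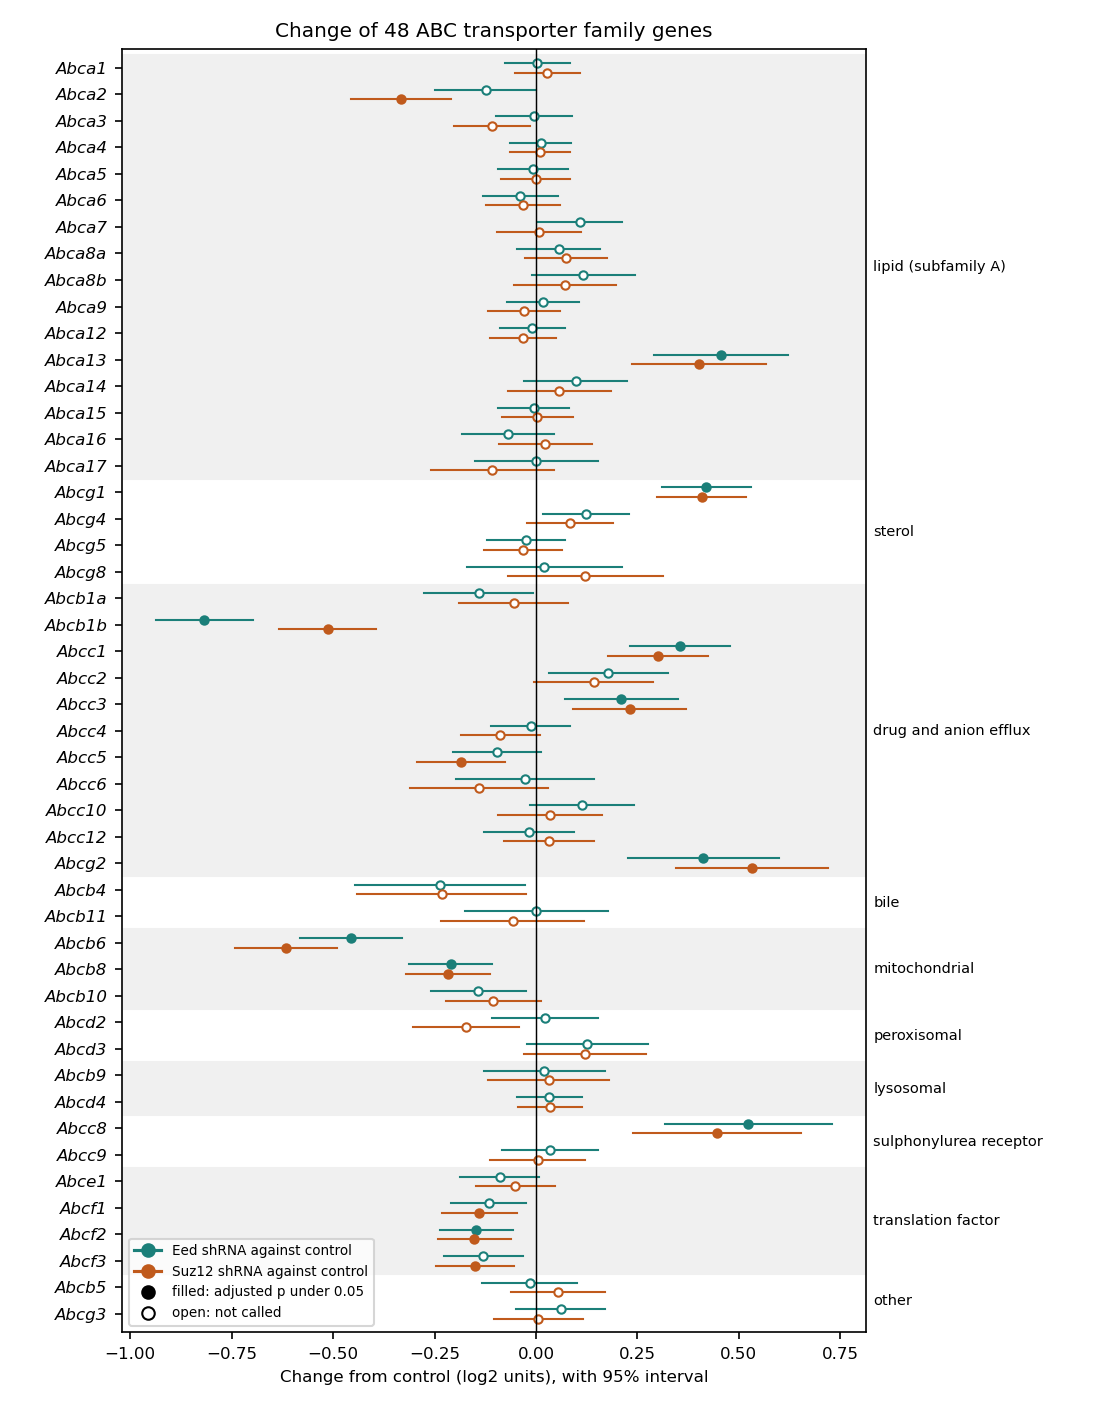
Change of each of the 48 members from control in log2 units (x axis) with its 95% interval from limma, by role (rows), for Eed shRNA (teal) and Suz12 shRNA (orange); filled points were called at an adjusted p under 0.05. Abcb1b under Eed shRNA (-0.82) and Abcb6 under Suz12 shRNA (-0.62) lie farthest below 0, and Abcc8 under Eed shRNA (0.52) and Abcg2 under Suz12 shRNA (0.53) farthest above.

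Drug and organic anion pumps moved in both directions. Of 11, 3 rose and 1 fell under Eed shRNA, and 3 rose and 2 fell under Suz12 shRNA. That is 36.4% and 45.5% called, beside 21.8% and 21.2% of all genes. Each of the other scalings gave 2 and 2 under Eed shRNA. Abcb1b, a rodent P-glycoprotein that pumps hydrophobic drugs out of the cell, fell the most (probe set 10519555). Its control arrays read 8.56, 8.49 and 8.67, the Eed shRNA arrays 7.74, 7.77 and 7.77, and the Suz12 shRNA arrays 7.98, 8.11 and 8.11. No group overlapped another, with the controls highest and Eed shRNA lowest. The change was -0.82 (SE 0.05), 1.76-fold lower, under Eed shRNA (limma adjusted p = 4.75e-06) and -0.51 (SE 0.05), 1.43-fold lower, under Suz12 shRNA (limma adjusted p = 9.96e-05).

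Abcb1a, the other P-glycoprotein gene and its direct neighbour on chromosome 5, was not called. Its arrays read 6.58, 6.58 and 6.47 in the controls, 6.47, 6.26 and 6.47 under Eed shRNA, and 6.47, 6.52 and 6.47 under Suz12 shRNA. The identical value 6.4738 recurred in all 3 groups, so the SDs are a poor measure of spread here. The means were 6.54 ± 0.06 (SD, n = 3) in the controls, 6.40 ± 0.12 under Eed shRNA and 6.49 ± 0.02 under Suz12 shRNA, just above the guide. The changes were -0.14 (95% interval -0.28 to -0.01) and -0.05 (-0.19 to 0.08); the first was called after quantile normalization, cyclic loess and median centring. Abcb4, next in the same row of genes and the exporter of phosphatidylcholine into bile, read 6.22, 6.39 and 5.97 in the controls, 6.02, 5.99 and 5.86 under Eed shRNA and 5.91, 6.06 and 5.91 under Suz12 shRNA. Its groups overlapped at control replicate 3, and its group means all lay under the guide. The differences of -0.24 (-0.45 to -0.03) and -0.23 (-0.44 to -0.02) were not called; without control replicate 3 they were -0.35 and -0.34, with limma adjusted p-values of 0.0117 and 0.0133. The replicate block also called both (limma adjusted p = 0.0321 and 0.0362), as did median centring the first (limma adjusted p = 0.0374). These genes are close in sequence, and how far their probe sets read each other's transcripts was not tested, nor was the difference between their changes.

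Abcg2, the breast cancer resistance protein, exports porphyrins and the dye that defines side population cells (probe set 10538640). The arrays read 8.73, 8.61 and 8.75 in the controls, 9.10, 9.10 and 9.14 under Eed shRNA, and 9.46, 9.11 and 9.13 under Suz12 shRNA. Every knockdown array exceeded every control array, and replicate 1 of Suz12 shRNA stood above the rest. It rose by 0.41 (SE 0.08), 1.33-fold (limma adjusted p = 0.00495), and by 0.53 (SE 0.08), 1.45-fold (limma adjusted p = 0.00127); without that replicate the second change was 0.42. The rodent-specific relative Abcg3 stayed under the guide, with differences of 0.06 and 0.01.

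Abcc1, the multidrug resistance protein that exports glutathione conjugates and leukotriene C4, had 11.03, 11.16 and 11.02 in the controls (probe set 10433735). Under Eed shRNA it had 11.37, 11.45 and 11.45, and under Suz12 shRNA 11.28, 11.45 and 11.37. The knockdown arrays lay above all controls and overlapped each other. It rose by 0.36 (SE 0.06), 1.28-fold (limma adjusted p = 0.00111), and by 0.30 (SE 0.06), 1.23-fold (limma adjusted p = 0.00311). Abcc3, an exporter of organic anions and glucuronides at basolateral membranes, rose by 0.21 (limma adjusted p = 0.0356) and 0.23 (limma adjusted p = 0.0235). Leaving out control replicate 1, control replicate 3 or Suz12 shRNA replicate 1 ended both calls. The first was also lost without any 1 of the Eed shRNA arrays and after each other scaling, and the second without Suz12 shRNA replicate 3.

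Abcc5, an exporter of cyclic nucleotides, fell by 0.18 under Suz12 shRNA (limma adjusted p = 0.0201) and was at -0.10 (-0.20 to 0.01) under Eed shRNA. The Suz12 shRNA call was lost without control replicate 2, without Suz12 shRNA replicate 1 and without Suz12 shRNA replicate 3. Abcc2, which exports anions at apical membranes, was at 0.18 (0.03 to 0.32) and 0.14 (0.00 to 0.29), and Abcc4, an exporter of cyclic nucleotides and prostaglandins, at -0.01 (-0.11 to 0.08) and -0.09 (-0.19 to 0.01). Neither was called. Abcc6, Abcc10 and Abcc12 were not called either, with differences between -0.14 and 0.11, though Abcc6 was called under Suz12 shRNA without control replicate 3.

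Abcb5, a multidrug transporter relative of P-glycoprotein, read 5.61, 5.54 and 5.41 in the controls, 5.47, 5.51 and 5.54 under Eed shRNA, and 5.58, 5.60 and 5.54 under Suz12 shRNA. All arrays lay under the guide, the groups overlapped, and the differences of -0.02 (-0.13 to 0.10) and 0.05 (-0.06 to 0.17) were not called. Abcb11, the bile salt export pump, was likewise under the guide, at 0.00 (-0.18 to 0.18) and -0.06 (-0.23 to 0.12).

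**Figure D3:**
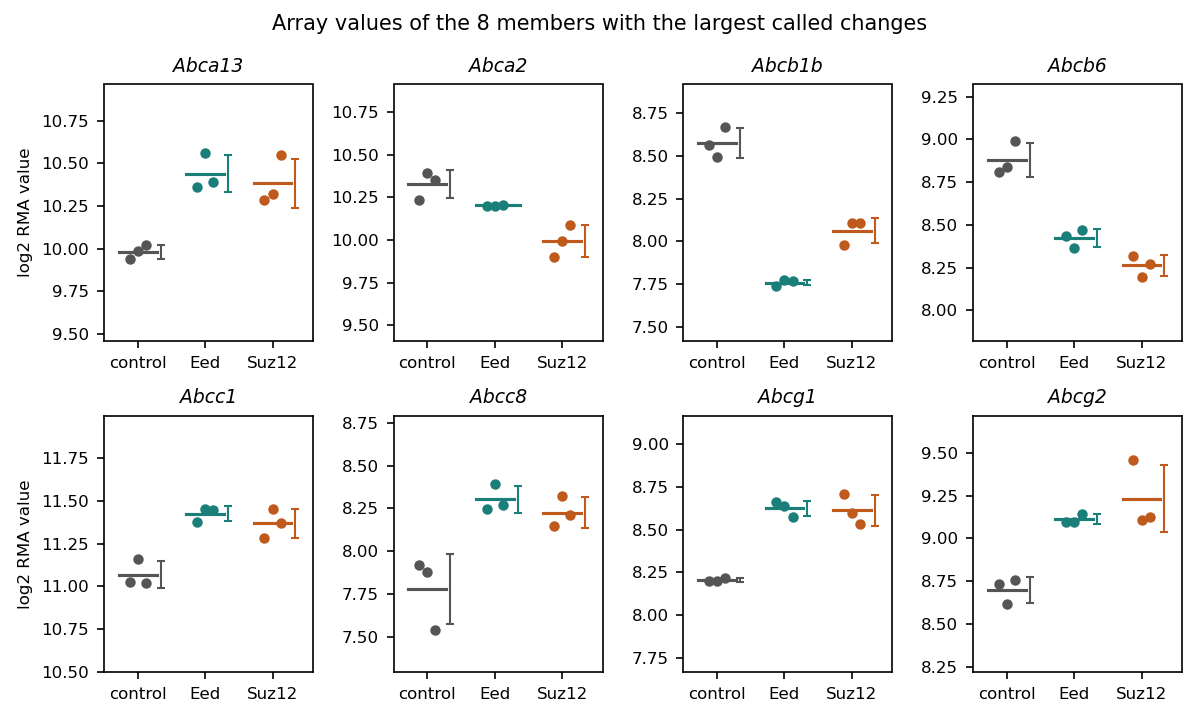
Log2 RMA values (y axis, each panel 1.5 units high) of the 8 members called with a change of at least 0.32 log2 units, with 1 point per array, a line at the group mean and the SD of 3 arrays as a bar, for control, Eed shRNA and Suz12 shRNA. Abcb1b and Abcb6 are lower and Abca13, Abcc1, Abcc8, Abcg1 and Abcg2 higher than every control array in both knockdowns. Abca2 overlaps no control array and was called under Suz12 shRNA but not under Eed shRNA. Because the 8 were chosen by their calls, such separation was likely beforehand, and it was not counted over all genes.

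Among lipid transporters, subfamily A gave 1 call of 16 under Eed shRNA and 2 of 16 under Suz12 shRNA, with medians of 0.0024 and 0.0059. These shares of 6.25% and 12.5% stand beside 21.8% and 21.2% of all genes. Only 4 of the 16 lay above the background guide, and the 2 called members, Abca13 and Abca2, were among them. The shares were not matched for level. Abca13, a very large subfamily A protein, was the member that rose (probe set 10374248). It read 9.94, 9.99 and 10.02 in the controls, 10.36, 10.56 and 10.39 under Eed shRNA, and 10.28, 10.32 and 10.55 under Suz12 shRNA. Both knockdown groups lay above every control array and overlapped each other. The rise was 0.46 (SE 0.07), 1.37-fold (limma adjusted p = 0.00141), under Eed shRNA and 0.40 (SE 0.07), 1.32-fold (limma adjusted p = 0.00315), under Suz12 shRNA.

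Abca2, an endolysosomal lipid transporter, fell under Suz12 shRNA (probe set 10470050). The controls read 10.23, 10.39 and 10.35, the Eed shRNA arrays 10.20, 10.20 and 10.21, and the Suz12 shRNA arrays 9.90, 9.99 and 10.09. The groups did not overlap, with Eed shRNA between the others. The change was -0.33 (SE 0.06), 1.26-fold lower, under Suz12 shRNA (limma adjusted p = 0.00184) and -0.12 (-0.25 to 0.00) under Eed shRNA (limma adjusted p = 0.165). The difference of Suz12 from Eed shRNA was -0.21 (-0.33 to -0.08) and was not called (limma adjusted p = 0.391).

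Abca3 and Abca7, a phospholipid transporter of lamellar bodies and one linked to phagocytosis, were not called in the deposited values. Abca3 was at 0.00 (-0.10 to 0.09) and -0.11 (-0.20 to -0.02), and Abca7 at 0.11 (0.01 to 0.21) and 0.01 (-0.09 to 0.11). Abca7 was called higher under Eed shRNA after quantile normalization and cyclic loess. Many subfamily A members sit side by side, as Abca8b, Abca8a, Abca9, Abca6 and Abca5 on chromosome 11 and Abca14, Abca15 and Abca16 on chromosome 7. All 8 of these were under the guide and not called, with differences between -0.07 and 0.12. Abca4, the retinoid flippase of photoreceptors, Abca12, a glucosylceramide transporter of skin, and Abca17 were under it too and not called, with differences between -0.11 and 0.01.

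Abcg1, which passes cholesterol to high-density lipoprotein, rose (probe set 10443730). Its controls were tight at 8.20, 8.20 and 8.22, beside 8.66, 8.64 and 8.58 under Eed shRNA and 8.71, 8.60 and 8.53 under Suz12 shRNA. All knockdown arrays lay above all controls, and the knockdowns overlapped. The rises were 0.42 (SE 0.05), 1.34-fold (limma adjusted p = 2e-04), and 0.41 (SE 0.05), 1.33-fold (limma adjusted p = 0.000258). Abcg4, a close relative with the same acceptor, was at 0.12 (0.02 to 0.23) and 0.08 (-0.02 to 0.19) and was not called. Abcg5 and Abcg8, which form 1 sterol pump together, were at -0.02 and -0.03, and at 0.02 and 0.12.

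Of the 3 mitochondrial members measured, Abcb6 and Abcb8 fell in both comparisons and Abcb10 was not called. The share called was 66.7% in each comparison, beside 21.8% and 21.2% of all genes. Abcb6, a porphyrin transporter, read 8.81, 8.84 and 8.99 in the controls, 8.44, 8.37 and 8.47 under Eed shRNA, and 8.32, 8.20 and 8.27 under Suz12 shRNA (probe set 10355742). The 3 groups did not overlap, with Suz12 shRNA lowest. Its changes were -0.46 (SE 0.06), 1.37-fold lower (limma adjusted p = 0.000275), and -0.62 (SE 0.06), 1.53-fold lower (limma adjusted p = 4.1e-05).

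Abcb8, a mitochondrial inner membrane transporter, was at 9.65, 9.60 and 9.55 in the controls, 9.34, 9.36 and 9.46 under Eed shRNA, and 9.36, 9.36 and 9.42 under Suz12 shRNA. Both knockdown groups lay below the controls and overlapped each other. It fell by 0.21 (SE 0.05), 1.16-fold (limma adjusted p = 0.00759), and by 0.22 (SE 0.05), 1.16-fold (limma adjusted p = 0.00693). Abcb10, which supports heme synthesis, was at -0.14 (-0.26 to -0.02) and -0.10 (-0.22 to 0.01); the first was called after median centring and without control replicate 2.

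Peroxisomal and lysosomal members were not called in either comparison. Abcd2, which imports very long chain fatty acids, read 10.11, 10.11 and 10.25 in the controls, 10.12, 10.15 and 10.27 under Eed shRNA, and 10.04, 9.90 and 10.01 under Suz12 shRNA. The Suz12 shRNA arrays lay below all others, and the other groups overlapped. Its difference was 0.02 (-0.11 to 0.15) under Eed shRNA and -0.17 (-0.30 to -0.04) under Suz12 shRNA, where the limma adjusted p was 0.063; it was 0.0443 without dim genes, 0.0497 with a mean-variance trend and robust prior, and 0.0409 with the replicate block. Abcd3, which imports branched chain fatty acids and bile acid precursors, was at 0.13 (-0.02 to 0.28) and 0.12 (-0.03 to 0.27); the first was called without control replicate 3.

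The lysosomal members varied little. Abcd4, which helps release cobalamin (vitamin B12) from lysosomes, read 8.83, 8.88 and 8.86 in the controls, 8.87, 8.91 and 8.89 under Eed shRNA, and 8.88, 8.91 and 8.88 under Suz12 shRNA. The groups overlapped, and both differences were 0.03 (-0.05 to 0.11). Abcb9, a lysosomal peptide transporter, was at 0.02 (-0.13 to 0.17) and 0.03 (-0.12 to 0.18).

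Abcc8, the sulphonylurea receptor best known as the regulatory subunit of ATP-sensitive potassium channels in pancreatic beta cells, rose (probe set 10563487). Its arrays were at 7.92, 7.88 and 7.54 in the controls, 8.25, 8.39 and 8.27 under Eed shRNA, and 8.15, 8.32 and 8.21 under Suz12 shRNA. Knockdown arrays exceeded all controls, of which replicate 3 was the lowest. The rise was 0.52 (SE 0.09), 1.44-fold (limma adjusted p = 0.0023), and 0.45 (SE 0.09), 1.36-fold (limma adjusted p = 0.00609); without control replicate 3 it was 0.40 and 0.33. Abcc9, the second such receptor, stayed under the guide, and the channel genes Kcnj8 and Kcnj11 were not called, with differences between -0.05 and 0.13.

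Of 4 translation factors in subfamilies E and F, 1 fell under Eed shRNA and 3 under Suz12 shRNA. These shares of 25% and 75% stand beside 21.8% and 21.2% of all genes. Abce1, which splits ribosomes after termination, read 12.52, 12.48 and 12.61 in the controls, 12.48, 12.47 and 12.39 under Eed shRNA, and 12.48, 12.48 and 12.50 under Suz12 shRNA. The groups overlapped, and it was not called, at -0.09 (-0.19 to 0.01) and -0.05 (-0.15 to 0.05). Abcf2 fell by 0.15 in each comparison (limma adjusted p = 0.0239 and 0.0214). Abcf1, a translation initiation factor, and Abcf3 fell under Suz12 shRNA by 0.14 (limma adjusted p = 0.0367) and 0.15 (limma adjusted p = 0.0325), and were at -0.12 (-0.21 to -0.02) and -0.13 (-0.23 to -0.03) under Eed shRNA. All of these subfamily F calls were lost after quantile normalization and after cyclic loess. After median centring 3 of the 4 translation factors were called lower under Eed shRNA, with Abcf1 and Abcf3 gained; Abcf3 was also called there without dim genes and without Eed shRNA replicate 3. Single arrays decided them too. Abcf2 was not called without control replicate 1 or 2 in either comparison, without Eed shRNA replicate 2 or 3 in the first, or without Suz12 shRNA replicate 2 or 3 in the second. Abcf1 lost its call without control replicate 2 or 3, Eed shRNA replicate 1 or 2, or Suz12 shRNA replicate 1 or 3, and Abcf3 lost it when Suz12 shRNA replicate 2 or 3, or control replicate 1 or 3, was left out. Without Suz12 shRNA replicate 3 the family count under Suz12 shRNA was 9, with Abcc3, Abcc5, Abcf1, Abcf2 and Abcf3 no longer called.

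Between Suz12 and Eed shRNA directly, 0 of 48 members were called, beside 0.176% of all genes. An unadjusted p under 0.05 (limma) was found for 5 of the 48, beside 1209 of all 19937 genes. Abcb1b had the lowest adjusted p. It was 0.30 (0.18 to 0.42) higher under Suz12 than under Eed shRNA (limma adjusted p = 0.0813), and over 18 alternatives that adjusted p ran from 0.0232 with quantile normalization, the 1 setting that called it, to 0.331. Abcb6 was 0.16 (0.03 to 0.29) lower under Suz12 than under Eed shRNA (limma adjusted p = 0.691), and Abcd2 0.20 (0.07 to 0.33) lower (limma adjusted p = 0.505). The 95% intervals of the members had a median reach of 0.115 log2 units to either side of the change from control under Eed shRNA. They are not adjusted for the number of genes, so calls mostly needed larger changes than this. Smaller differences were mostly not detectable with 3 arrays per group. Some larger ones were not called either, such as -0.24 for Abcb4 and 0.18 for Abcc2 under Eed shRNA.

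Genes that work beside ABC proteins were read from 7 lists. Called genes with a change of at least 0.32 log2 units are named by rule; the smaller ones named here were chosen after their values were seen. Each list's share of called genes is set beside that of all genes, 21.8% under Eed shRNA and 21.2% under Suz12 shRNA; among all genes 8.78% and 8.25% were higher and 13.1% and 12.9% lower, with medians of -0.0068 and -0.0171. In the list of sterol sensing and efflux, 4 of 15 rose and 1 fell under Eed shRNA, and 4 rose and 2 fell under Suz12 shRNA (33.3% and 40% called, beside 21.8% and 21.2% of all genes). The risers were the same in both: Rxra, a partner of the sterol-sensing receptors (0.31 and 0.21), Mylip, which removes lipoprotein receptors (0.21 and 0.30), and the lysosomal cholesterol exporters Npc1 (0.23 and 0.22) and Npc2 (0.20 and 0.13). Scarb1, the receptor for high-density lipoprotein, fell by 0.20 and 0.17, and Rxrb fell by 0.16 under Suz12 shRNA. The list medians were 0.03 and 0.01. Under Suz12 shRNA the split was 6 higher and 0 lower after cyclic loess and 5 and 1 after quantile normalization, and median centring gave 3 and 2 in each comparison.

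The substrate pathways of Abcc1 held the largest partner change. Of 17 glutathione and leukotriene genes, 5 rose and 3 fell in each comparison (47.1% called, beside 21.8% and 21.2% of all genes), with medians of -0.04 and -0.07. Alox5, which begins leukotriene synthesis, read 11.50, 11.46 and 11.28 in the controls, 12.64, 12.63 and 12.53 under Eed shRNA, and 12.53, 12.53 and 12.54 under Suz12 shRNA. The knockdown arrays were all above the controls, by 1.19 and 1.12 on average (limma adjusted p = 5.95e-07 and 8.26e-07). Mgst1, a microsomal glutathione transferase, rose by 0.76 and 0.75, Alox5ap, which presents the substrate to Alox5, by 0.31 and 0.32, Lta4h, which makes leukotriene B4, by 0.25 and 0.41, and the glutathione reductase Gsr by 0.19 and 0.23. Ltc4s, which makes leukotriene C4 itself, was not called (0.02 and -0.11). The glutathione synthesis genes Gclm and Gss fell, by 0.27 and 0.18 under Eed shRNA and by 0.26 and 0.17 under Suz12 shRNA; the remaining fallers were Keap1 under Eed shRNA and Mgst2 under Suz12 shRNA. Cyclic loess gave 5 higher with 2 and 1 lower, and median centring 5 and 5 under Suz12 shRNA.

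Heme and iron-sulphur genes were mixed, with 2 of 20 higher and 4 lower under Eed shRNA and 1 higher and 5 lower under Suz12 shRNA (30% called in each, beside 21.8% and 21.2% of all genes). The list medians were -0.06 and -0.09. Hmox1, which breaks heme down, read 9.73, 9.89 and 9.62 in the controls, 10.60, 10.71 and 10.65 under Eed shRNA, and 10.49, 10.48 and 10.47 under Suz12 shRNA. It rose by 0.91 and 0.73 (limma adjusted p = 6.76e-06 and 2.75e-05), with no overlap between any groups. Cpox and Fech, enzymes of late heme synthesis, fell by 0.35 and 0.23 under Eed shRNA and by 0.35 and 0.28 under Suz12 shRNA. The sulphur donor Nfs1 fell by 0.28 and 0.24 and Glrx5 by 0.16 and 0.15. The mitochondrial iron importer Slc25a37 rose by 0.25 under Eed shRNA and Iscu fell by 0.16 under Suz12 shRNA. The split was 3 higher and 2 lower, and 3 and 3, after cyclic loess, and 1 higher and 8 lower under Suz12 shRNA after median centring; quantile normalization gave 2 and 3, and 3 and 4.

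In the peroxisome list 0 of 23 rose and 4 fell under Eed shRNA, and 1 rose and 5 fell under Suz12 shRNA. These shares of 17.4% and 26.1% lie near those of all genes, 21.8% and 21.2%, and the list medians were -0.08 and -0.07. Pex10, a ubiquitin ligase of peroxisomal protein import, fell by 0.44 and 0.50 (limma adjusted p = 0.000632 and 0.000317). Pex3, Pex14 and Pex19, other biogenesis factors, fell by 0.25, 0.24 and 0.14 under Eed shRNA and by 0.20, 0.20 and 0.12 under Suz12 shRNA. Amacr, which prepares branched chain acids for oxidation, fell by 0.34 under Suz12 shRNA and Acox3, an oxidase of the same pathway, rose by 0.18. Cyclic loess turned the Eed shRNA split to 3 higher and 2 lower, quantile normalization to 1 and 4 and median centring to 0 and 6. Under Suz12 shRNA the split was 1 and 3 after cyclic loess and after quantile normalization, and 0 and 5 after median centring.

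Genes of cobalamin handling gave 1 higher and 3 lower of 9 under Eed shRNA, with 1 and 5 under Suz12 shRNA. That is 44.4% and 66.7% called, beside 21.8% and 21.2% of all genes. The list medians were -0.10 and -0.21. Mmachc, which processes cobalamin on its way from the lysosome, read 11.48, 11.43 and 11.57 in the controls, 10.93, 10.89 and 10.97 under Eed shRNA, and 11.11, 10.92 and 10.95 under Suz12 shRNA. It fell by 0.56 and 0.50 (limma adjusted p = 8.38e-05 and 0.000178), with every knockdown array below the controls. Methionine synthase Mtr and its reductase Mtrr fell by 0.29 and 0.34 under Eed shRNA and by 0.31 and 0.25 under Suz12 shRNA, and Mmab and the receptor Cd320 fell by 0.21 and 0.24 under Suz12 shRNA. The plasma carrier Tcn2 rose by 0.37 in each.

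Ribosome recycling and initiation genes gave 0 higher and 4 lower of 15 under Eed shRNA and 0 and 2 under Suz12 shRNA. The shares called, 26.7% and 13.3%, lie near or under the 21.8% and 21.2% of all genes, and the list medians were -0.11 and -0.07. Pelo, which rescues stalled ribosomes with Abce1, fell by 0.18 and 0.27, and Eif1a by 0.15 and 0.14. Gspt1 and Eif2d fell under Eed shRNA, by 0.18 and 0.13. Quantile normalization and cyclic loess each gave 2 lower and 1 lower in the comparisons, and median centring 5 and 2. Among 11 ABC proteins and partners outside the symbol rule, 5 fell under Eed shRNA and 3 under Suz12 shRNA, and 0 rose (45.5% and 27.3% called, beside 21.8% and 21.2% of all genes). The list medians were -0.12 and -0.08. Quantile normalization and cyclic loess each left 3 lower under Eed shRNA. Tap2, a subunit of the peptide transporter that loads MHC class I, read 10.84, 10.79 and 10.92 in the controls, 10.47, 10.40 and 10.62 under Eed shRNA, and 10.33, 10.44 and 10.24 under Suz12 shRNA. Its fall of 0.35 and 0.51 (limma adjusted p = 0.00333 and 0.000414) left no overlap with the controls. Its partner Tap1 fell by 0.14 and 0.26, and Rad50, a DNA repair ATPase, by 0.21 and 0.27. The cohesin and condensin ATPases Smc3 and Smc2 fell under Eed shRNA by 0.23 and 0.20.

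**Figure D4:**
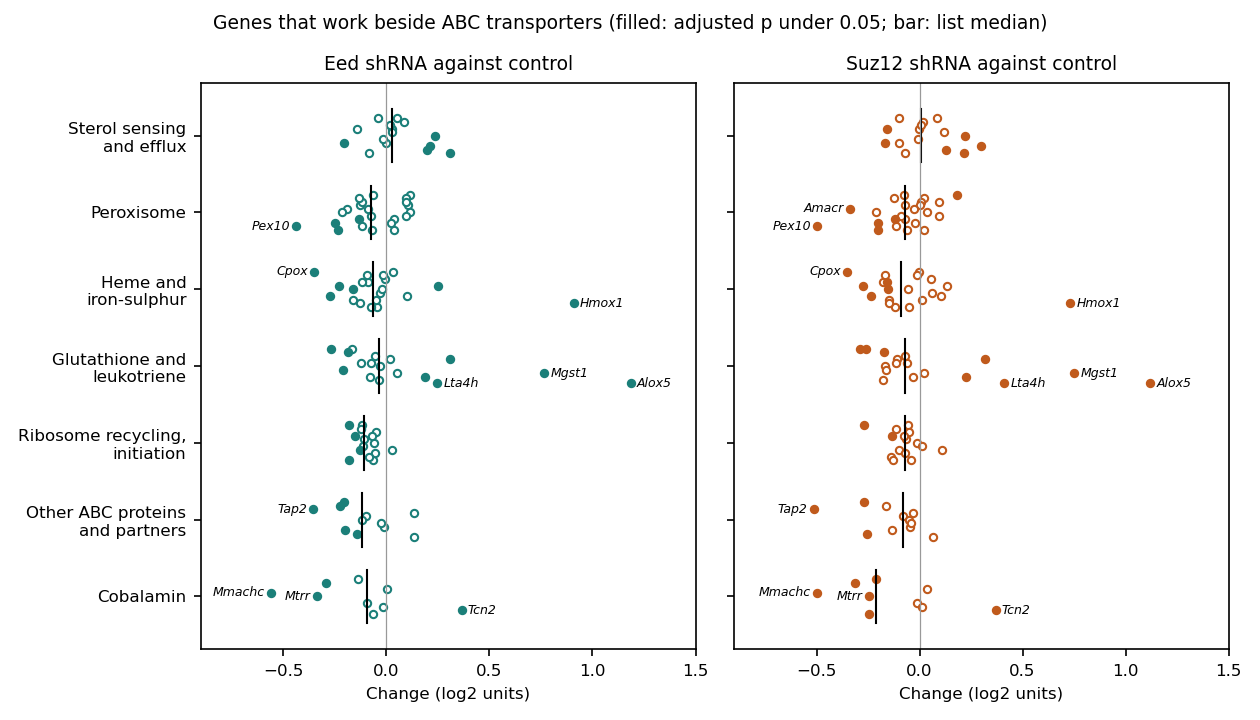
Change from control in log2 units (x axis) of the measured genes of 7 partner lists (rows), 1 point per gene, under Eed shRNA (left) and Suz12 shRNA (right); filled points were called at an adjusted p under 0.05, black bars are list medians and called genes with a change of at least 0.32 in either comparison are named where called. Alox5, Hmox1 and Mgst1 lie farthest to the right and Mmachc, Pex10 and Tap2 farthest to the left.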

How the data were processed

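Total RNA of 9 samples was put on Affymetrix arrays after whole-transcript biotin labelling, per the labels. The deposited log2 values were made by the authors with RMA, per the submitters' processing notes, which corrects background, scales arrays to each other and summarises probes; the sources used here give no version of it and no probe annotation. Array medians lay between 6.86 and 6.95; precision is limited by the number of arrays. Of 34760 probe sets, 21640 carried 1 gene symbol in the platform annotation, giving 19937 genes; 1321 with several symbols and 11799 unnamed were left out. Abcb5 alone of the members had 2 probe sets. Changes were tested with limma 3.58.1 (R 4.3.3), 1 mean per group over all arrays, two-sided, with Benjamini-Hochberg adjustment over all genes; the steps were tested on simulated data. Members, role groups and partner lists were chosen with earlier results of these data known. Members called with changes of at least 0.32 log2 units, and the highest of each role, were given array by array. Promoter windows came from RefSeq (GRCm38.p6), matched by gene number for 38 of 48 members. Alternatives covered scaling, dim genes, probe sets, samples in the fit, the spread model, the replicate block and leaving out each array.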

Additional observations from a re-analysis of the deposited data

How the results depend on the processing

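At 1.5-fold or more, 1 member was called under Eed shRNA and 1 under Suz12 shRNA. Leaving out each array in turn gave 8 to 11 calls under Eed shRNA and 9 to 14 under Suz12 shRNA. Between Suz12 and Eed shRNA, quantile normalization called 1 member, Abcb1b, and the other settings 0. Nothing in the labels says whether replicate numbers pair the samples. After group means were subtracted, same-numbered arrays correlated between -0.167 and 0.201, and 4 of 9 arrays correlated best with their own number. With 3 arrays per group, these values cannot settle whether the numbers pair samples. With the replicate block, 10 members were called under Eed shRNA (5 higher, 5 lower), 15 under Suz12 shRNA (6 higher, 9 lower) and 0 between the knockdowns, and 40 partner genes were called in either comparison with the control, beside 43 without it. Partner counts ran from 33 to 48. Over all genes as deposited, 14897 of 19937 were called in neither comparison with the control. Counts over all genes are not given for the replicate block or for leaving out an array. The member and partner counts in those settings therefore have no matching background. A tally of 38 changes covered only the called members and the highest of each role, in both comparisons with the control. Of its 642 values from the alternatives, 583 stayed on the same side of the threshold, 47 lost the call and 12 gained one. Where either value was called, 0 reversed direction. Changes of sign between uncalled values were not counted as reversals. The lost calls were those of Abcc3, Abcc5, Abcf1, Abcf2 and Abcf3. Members outside this tally also gained calls in some settings, namely Abca7, Abcb1a, Abcb10, Abcc6 and Abcd3. No scaling moved the median of all genes by over 0.1 log2 units. Small changes and dim genes are limited by 3 arrays per group and by the lack of a detection call.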
